A study of Mus musculus with 23 samples.

Results

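Spleens of DBA/2J mice that had received 1 Gy of gamma rays were compared with spleens of unirradiated DBA/2J mice across all detected genes. The comparison used 8 of the 23 arrays of the series, all arrays that the treatment label gave as high dose (4) or control (4) in this strain. Each array held RNA pooled from the spleens of 2 males, 10 weeks old, collected 24 h after whole-body exposure or sham handling, so no pool shows a single animal. The high dose group received 1 Gy from 60Co (dose rate 6 Gy per minute). The control group carried no radiation dose, although the source names of irradiated samples also hold the word control. The other groups of the series were DBA/2J given 10 cGy from 137Cs (dose rate 9 cGy per hour, 3 pools) and C57BL/6J with 1 Gy (4 pools), sham exposure (4 pools) or 10 cGy (4 pools). They were compared only where named, and C57BL/6J with 10 cGy entered no comparison. All 23 arrays shared the normalization, the probe filter, the choice of probe per symbol and the estimate of the spread. DBA/2J and C57BL/6J are inbred strains and the parents of the BXD panel. All p-values measure the spread between pools, which nothing in the labels ties to separate cages, days or extractions. The title numbers of the high dose pools and of the control pools form separate runs of consecutive numbers, and anything that ran with them cannot be told apart from the dose.

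The red pulp of the mouse spleen filters blood and recycles iron from old red cells, and unlike the human spleen it also makes red cells throughout adult life. Dividing erythroid precursors and lymphocytes are among the most radiation-sensitive cells of the body. DNA double-strand breaks activate the kinase ATM and, through it, the transcription factor p53, whose targets halt the cell cycle (Cdkn1a), feed back on p53 itself (Mdm2, Ccng1) or promote cell death. Repression of mitotic genes after p53 activation is known to run through p21, the Cdkn1a product, and the DREAM repressor complex.

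The labelled tissue was checked against defining markers. The B cell gene Ms4a1 had 9.79, 9.67, 9.73 and 9.78 in the high dose pools and 9.19, 9.75, 9.82 and 9.71 in the control pools, on the log2 scale of normalized signal used throughout. Cd8a and Csf1r did not reach the set of measured genes and were not analysed here. Between 14630 and 16002 probes were detected on the 8 arrays. Of 10 measured genes of pancreas and fat, which lie beside the spleen, 0 differed by the test. Their mean was 5.49, 5.90, 5.42 and 6.17 in the high dose pools and 5.38, 6.47, 5.58 and 5.85 in the control pools, and single pools stood out in both groups: the fat hormone Adipoq had 5.56, 7.43, 5.68 and 9.15 in the high dose pools and 5.71, 6.42, 5.66 and 5.92 in the control pools, and the pancreatic enzyme gene Ctrb1 had 4.89, 5.23, 5.34 and 5.10 in the high dose pools (detected on 0 of 4) and 5.04, 7.81, 6.03 and 6.52 in the control pools (detected on 3 of 4). Control pool 1 stood apart from the other 3 control pools, with Pearson correlations across features of 0.980 to 0.985 to them, whereas those 3 had 0.991 to 0.995 among themselves.

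After 1 Gy, the p53 targets Ccng1, Cdkn1a and Dglucy rose by more than 1 log2 unit, while a larger number of features fell, among them genes of red cell precursors and of mitosis. In the limma fit to all 23 arrays, 284 of 17176 features passed a Benjamini-Hochberg adjusted p of 0.05, which is 1.65% of those tested. Of these, 86 rose (0.501%) and 198 fell (1.15%). The median change was 0.70 among the features that rose and -1.42 among those that fell, with 12 above 1 and 167 below -1, while the median over all features was 0.03. The split between rises and falls depended on the processing: rises were 30.3% of the calls here, 59.4% with the background that limma infers from the detection p-values, 55.1% in the authors' processed values and 41.5% with median scaling, which moved the median of all features to 0.10. Without adjustment, 1259 features were higher and 1078 lower at a p under 0.05. In all 284 called features the high dose pools and the control pools did not overlap, as in 2161 features overall (12.6%).

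The number of calls depended on single pools. Without control pool 1, 37 features were called, 34 of them among the 284. Without high dose pool 1 there were 41 calls and without high dose pool 2 there were 56, all among the 284. Leaving out control pool 3, high dose pool 3 or high dose pool 4 gave 109, 171 and 150 calls, and leaving out control pool 2 or 4 gave 192 and 246. All 284 features kept their direction in each of these 8 fits. A fit to the 11 DBA/2J arrays alone called 15 features, and a fit to the 8 arrays alone called 688. Of the 57 called genes named by rule, 14 kept their call whichever of the 8 pools was left out: Ccng1, Cdkn1a, Dglucy, Rsad2, Ypel4, Ackr1, Erich2, Rec114, Abcb10, Slc25a37, Coro1b, Ltc4s, Matn1 and the Myo18b probe. The calls of the other 43 were lost in at least 1 of these fits.

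**Figure D1:**
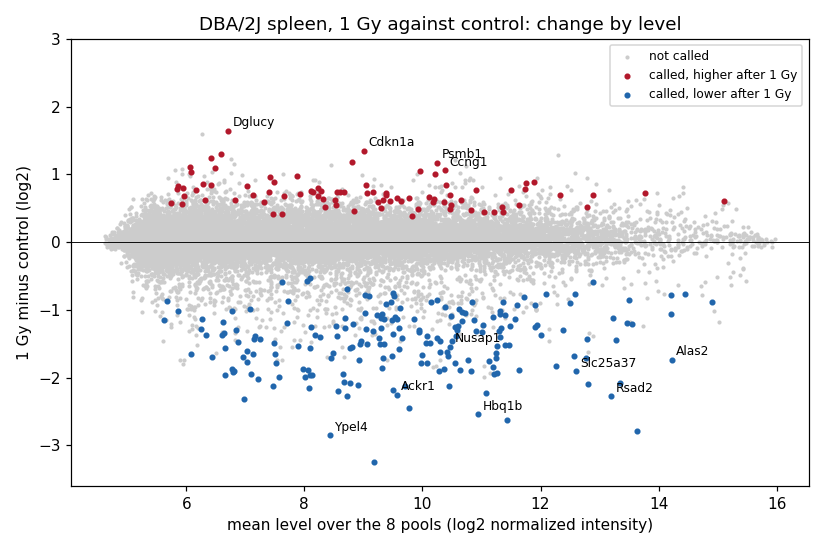
Change of every feature after 1 Gy (log2, high dose minus control, vertical axis) against its mean level over the 8 pools (log2 normalized signal, horizontal axis). Red points are the 86 features that rose, blue points the 198 that fell and grey points those not called, and the falls reach further from 0 than the rises.

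Genes induced by p53 led the rises by adjusted p. Of 36 measured p53 targets on 2 lists, 4 rose and 1 fell, against 0.501% and 1.15% of all features. The change was above 0 in 30 of the 36, against 54.9% of all features, and the median change was 0.26. Without control pool 1, 3 rose and 0 fell. Ccng1, which encodes cyclin G1 and is part of the p53 feedback loop, had 10.89, 11, 11 and 10.76 in the high dose pools and 9.87, 9.83, 9.97 and 9.75 in the control pools. Every high dose pool was above every control pool, and the pools within each group lay close together. The change was 1.06 ± 0.11 (SE), that is 2.08-fold, with adjusted p = 4.09e-05. Cdkn1a, the cyclin-dependent kinase inhibitor p21 that arrests cells after damage, had 9.50, 9.92, 9.69 and 9.64 in the high dose pools and 8.76, 8.38, 8.35 and 7.87 in the control pools. Its groups did not overlap, and control pool 4 was the lowest of the 8. The change was 1.35 ± 0.20 (adjusted p = 0.00238). Dglucy, a mitochondrial D-glutamate cyclase, had 7.57, 7.77, 7.42 and 7.35 in the high dose pools and 5.51, 6.00, 5.89 and 6.11 in the control pools. It had the highest change of all genes called with a symbol, 1.65 ± 0.18 (adjusted p = 4.09e-05), but its size depended on the background correction: it was 0.18 with the background that limma infers from the detection p-values and 0.38 in the authors' processed values. Ccng1, Cdkn1a and Dglucy kept their call when any 1 of the 8 pools was left out and in each of the 13 other alternatives.

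The promoters of Ccng1 and Cdkn1a are shown because both genes rose and both upstream sequences hold a match to the p53 decamer, 1 arm of the element to which p53 binds. Each is the 250 bases before a start of the gene, from RefSeq on GRCm38.p6. It is written 5′ to 3′ on the gene's strand, with each decamer match in capitals. The search held 1 start for Ccng1 and 2 for Cdkn1a. Ccng1 lies on the minus strand (chr11:40755287-40755536) and Cdkn1a on the plus strand (chr17:29090729-29090978).
Ccng1: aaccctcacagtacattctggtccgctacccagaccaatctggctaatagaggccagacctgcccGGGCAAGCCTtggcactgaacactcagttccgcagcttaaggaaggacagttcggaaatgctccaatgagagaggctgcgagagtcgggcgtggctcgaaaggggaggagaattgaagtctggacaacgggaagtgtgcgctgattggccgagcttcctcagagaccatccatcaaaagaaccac
Cdkn1a: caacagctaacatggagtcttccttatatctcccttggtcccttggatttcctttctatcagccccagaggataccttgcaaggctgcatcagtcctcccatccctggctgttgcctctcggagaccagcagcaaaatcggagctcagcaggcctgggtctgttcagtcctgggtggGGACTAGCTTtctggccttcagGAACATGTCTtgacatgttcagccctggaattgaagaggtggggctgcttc
The search covered both strands of 300 bases per start, 250 before and 50 after it. A gene counted if any of its starts held a match, and the start with the most matches is shown. A match was found in 10 of the 30 p53 list genes with a promoter in the table (33.3%), in 8.36% of 9202 measured genes and in 9.55% of all 27025 genes of the table. It was found in 7 of 56 genes that rose (12.5%) and in 19 of 128 that fell (14.8%). A match describes these letters and does not show binding.

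Other p53 targets gave smaller or opposite values. Zmat3, a zinc finger RNA-binding protein that p53 induces, had 9.77, 9.75, 9.40 and 9.20 in the high dose pools and 8.91, 8.97, 8.71 and 8.60 in the control pools. It rose without overlap between the groups (0.73 ± 0.17, adjusted p = 0.033), but the call was lost when control pool 1, 3 or 4 or high dose pool 1, 2 or 3 was left out, and with the background that limma infers (0.52). Gadd45a, a stress sensor that p53 can induce, fell: it had 10.09, 10.35, 10.60 and 10.31 in the high dose pools and 12.24, 11.75, 11.53 and 11.16 in the control pools. The change was -1.33 ± 0.26 (adjusted p = 0.0129), and the call was lost when control pool 1, high dose pool 1 or high dose pool 2 was left out. Mdm2, the ubiquitin ligase that degrades p53, had 11.36, 11.44, 11.09 and 11.16 in the high dose pools and 10.70, 11.14, 10.55 and 10.73 in the control pools. Control pool 2 overlapped the high dose pools, and the change of 0.48 ± 0.16 did not pass the test (adjusted p = 0.131). Phlda3, which restrains AKT signalling, had a change of 0.53 ± 0.21 (adjusted p = 0.231), and Dcxr, a carbonyl reductase, had 0.56 ± 0.17 (adjusted p = 0.0898). Plk2, a polo-like kinase, missed the threshold with 0.59 (adjusted p = 0.0609). The death receptor Fas had 0.54 (adjusted p = 0.271), the BH3-only genes Pmaip1 and Bbc3 had 0.41 and 0.09 (adjusted p = 0.301 and 0.894), and the repair genes Ddb2 and Xpc had 0.26 and 0.26 (adjusted p = 0.347 and 0.402). The antiproliferative gene Btg2 had -0.09 ± 0.24 (adjusted p = 0.936) and was detected on 0 of the 4 high dose arrays and 1 of the 4 control arrays.

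Red cell precursor genes were the most numerous among the listed genes that fell. Of 56 measured genes on 5 erythroid lists, 23 fell and 0 rose, against 1.15% of all features that fell. The change was below 0 in 53 of the 56, against 45.1% of all features. The groups did not overlap in 45 (against 12.6% of all features), and the median change was -1.26. The calls rested on few pools: 2 erythroid genes were called without control pool 1, 3 without high dose pool 1 and 4 without high dose pool 2. The change was still below 0 in 53 genes without control pool 1, with a median of -1.11. In whole spleen RNA, fewer erythroid cells and less of these transcripts per cell cannot be told apart.

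The promoters of Alas2 and Trim10 are shown because both genes are erythroid, both fell and both hold the letters AGATAA, a form of the motif that GATA1 binds, shown in capitals on either strand. Both lie on the plus strand, Alas2 at chrX:150547167-150547416 and Trim10 at chr17:36869324-36869573 (RefSeq, GRCm38.p6, 250 bases before the start).
Alas2: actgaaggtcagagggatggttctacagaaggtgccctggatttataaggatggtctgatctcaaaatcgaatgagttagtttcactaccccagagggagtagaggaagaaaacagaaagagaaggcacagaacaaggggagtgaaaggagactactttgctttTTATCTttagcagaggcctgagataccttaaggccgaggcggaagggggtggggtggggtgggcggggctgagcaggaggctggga
Trim10: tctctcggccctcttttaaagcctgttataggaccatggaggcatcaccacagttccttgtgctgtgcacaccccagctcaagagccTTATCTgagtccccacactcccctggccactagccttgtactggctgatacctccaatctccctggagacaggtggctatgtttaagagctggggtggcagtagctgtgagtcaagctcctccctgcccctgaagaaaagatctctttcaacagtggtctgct
Searched on both strands over the same 300 bases, AGATAA occurred in 10 of 41 erythroid list genes (24.4%), 9.07% of measured genes and 12.7% of all genes. It occurred in 23 of 128 genes that fell (18%) and in 4 of 56 that rose (7.14%).

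**Figure D2:**
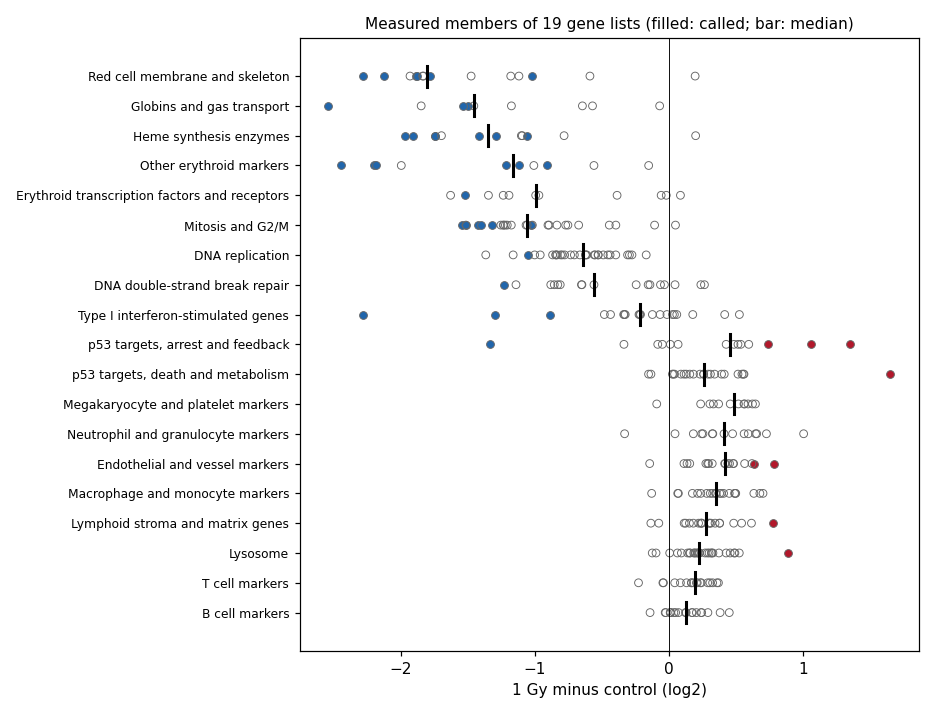
Change after 1 Gy (log2, high dose minus control) of each measured member of 19 gene lists, with a bar at each list's median. Filled points passed an adjusted p of 0.05. The erythroid and mitosis lists lie almost wholly below 0, whereas the p53 lists lie mostly above it.

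Of 12 measured heme synthesis genes, 7 fell and 0 rose, against 1.15% of all features that fell, with a median change of -1.35. Alas2, the erythroid form of the first and rate-limiting enzyme, had 13.17, 12.76, 13.72 and 13.77 in the high dose pools and 15.30, 15.03, 15.34 and 14.70 in the control pools. High dose pools 1 and 2 were lower than 3 and 4, and no high dose pool reached a control pool. The change was -1.74 ± 0.34 (adjusted p = 0.0122). Slc25a37 (mitoferrin-1), which brings iron into mitochondria, had 11.03, 11.36, 11.98 and 12.20 in the high dose pools and 13.74, 13.55, 13.57 and 13.35 in the control pools. Its change was -1.91 ± 0.34 (adjusted p = 0.00725), and its other, dim probe had a change of -0.06. Abcb10, a mitochondrial transporter that stabilizes mitoferrin-1, had 6.92, 6.98, 7.37 and 7.21 in the high dose pools and 9.74, 9.02, 8.90 and 8.69 in the control pools. Its change was -1.97 ± 0.34 (adjusted p = 0.00598). Slc25a37 and Abcb10 kept their call whichever pool was left out, and Alas2 and Uros did not. With the background that limma infers, the change of Abcb10 was -0.68 and not called. Uros, Urod, Fech and Ppox, enzymes of the later steps, fell with changes of -1.42, -1.06, -1.74 and -1.29 (adjusted p = 0.0256, 0.0314, 0.0326 and 0.0473). Alas1, the form of the first enzyme used outside the red cell lineage, had a change of 0.20 (adjusted p = 0.539).

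Among globins and gas transport genes, 3 of 9 measured members fell, against 1.15% of all features, and the median change was -1.46. Bpgm, which makes the 2,3-bisphosphoglycerate that lowers oxygen affinity, had 7.04, 6.90, 7.23 and 7.30 in the high dose pools and 9.37, 8.48, 8.31 and 8.46 in the control pools. The groups did not overlap and control pool 1 was far above the other control pools. The change was -1.54 ± 0.30 (adjusted p = 0.012), and the probe was detected on 1 of 4 high dose arrays and 4 of 4 control arrays. With the background that limma infers, it was -0.44 and not called. Hbq1b and Hbq1a, paralogous theta globins whose probes may share signal, had changes of -2.54 ± 0.48 (adjusted p = 0.0111) and -1.50 ± 0.28 (adjusted p = 0.0112). That of Hbq1a was -0.96 and called with the background that limma infers. Hba-a1, an adult alpha globin near the top of the signal scale, had -0.07 (adjusted p = 0.827) and Hbb-b2 had -0.65 (adjusted p = 0.196). Carbonic anhydrase 1 (Car1) had -0.57 (adjusted p = 0.686) and carbonic anhydrase 2 (Car2) -1.46 (adjusted p = 0.0966).

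Red cell membrane and skeleton genes had the lowest median of the 5 lists, -1.81. Of 14 measured members, 6 fell, against 1.15% of all features. Tmod1 (tropomodulin-1, which caps the short actin filaments of the skeleton) had 6.64, 7.39, 8.20 and 8.10 in the high dose pools and 10.56, 9.68, 9.71 and 9.49 in the control pools. High dose pool 1 was the lowest of the 8, and control pool 1 the highest. The change was -2.28 ± 0.48 (adjusted p = 0.0197). Dmtn (dematin, an actin-bundling protein) had a change of -2.13 ± 0.49 (adjusted p = 0.0314). Rhd, the Rh blood group antigen, had 6.84, 6.93, 7.10 and 7.31 in the high dose pools and 10.21, 8.31, 8.61 and 8.56 in the control pools. Its change was -1.88 ± 0.46 (adjusted p = 0.0411), with control pool 1 far above the rest. The call of Rhd was kept in 1 of the 8 fits with 1 pool left out, that without control pool 2. With the background that limma infers, Tmod1 had -1.24 and Rhd -0.69, neither called. The probe of Sptb (beta spectrin) also passed the test (adjusted p = 0.0356), with 9.84, 10.72, 11.13 and 11.07 in the high dose pools and 12.98, 12.59, 12.46 and 12.27 in the control pools. No fold is given for it, because its detection p-values lay above 0.05 on all 4 control arrays despite raw signals of 4890 to 6444 there, against 1171 to 2446 on the high dose arrays. The call of Sptb was also kept in 1 of these 8 fits, that without control pool 4. Icam4 and Cd59a fell with -1.78 and -1.02 (adjusted p = 0.0483 and 0.0498). Ank1 (ankyrin-1), Slc4a1 (band 3) and Kel did not pass, with -1.84, -1.18 and -1.93 (adjusted p = 0.0694, 0.0985 and 0.0799).

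The regulators of the lineage gave fewer calls. Of 11 measured erythroid transcription factors and receptors, 1 fell, against 1.15% of all features, and the median change was -0.99. Nfe2, a subunit of the NF-E2 factor that drives globin expression, had 10.33, 10.48, 11.02 and 11.01 in the high dose pools and 12.82, 12.12, 12.17 and 11.81 in the control pools. Its groups did not overlap and the change was -1.52 ± 0.35 (adjusted p = 0.0314). The transferrin receptor Tfrc had -1.63 (adjusted p = 0.0532), the erythropoietin receptor Epor -1.19 (adjusted p = 0.0764), Klf1 -1.35 (adjusted p = 0.204) and Gata1 -0.99 (adjusted p = 0.252). Kit, the stem cell factor receptor of early progenitors, had -0.06 (adjusted p = 0.922).

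Of the other 10 measured erythroid markers, 6 fell, against 1.15% of all features, with a median of -1.17. Trim10, a ubiquitin ligase of terminal red cell maturation, had 7.37, 7.90, 9.32 and 9.07 in the high dose pools and 11.12, 10.05, 10.74 and 10.48 in the control pools. The change was -2.19 ± 0.52 (adjusted p = 0.0348), and the probe was detected on 2 of 4 arrays in each group. Tmcc2 had -2.45 ± 0.49 (adjusted p = 0.0143), and Fn3k, a kinase that removes sugar adducts from proteins, had -2.20 ± 0.45 (adjusted p = 0.0147) and, with the background that limma infers, -1.09 and no call. Bnip3l (NIX), which clears mitochondria from reticulocytes, had 12.14, 11.98, 12.13 and 11.96 in the high dose pools and 12.99, 12.84, 13.28 and 12.72 in the control pools. Unlike most of this group, it was of similar level in all 4 high dose pools, and its change was -0.91 ± 0.19 (adjusted p = 0.0197). Ube2o, which marks reticulocyte proteins for removal, had -1.21 ± 0.27 (adjusted p = 0.0264), and Prdx2, an abundant red cell peroxidase, had -1.12 (adjusted p = 0.0304).

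**Figure D3:**
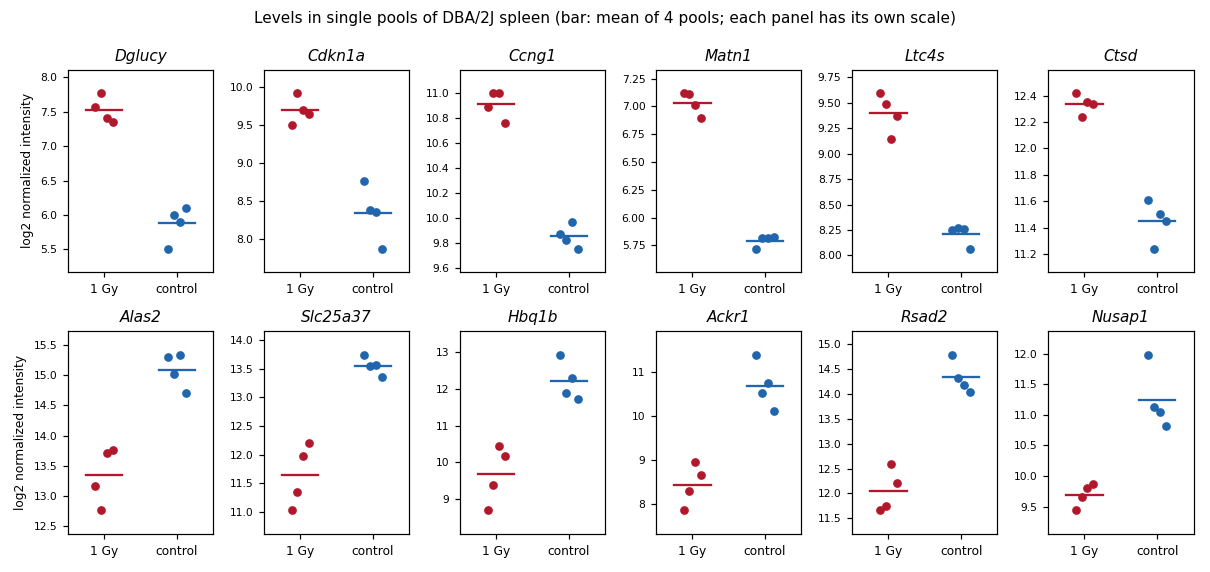
Level of selected genes (log2 normalized signal, vertical axis) in each pool, high dose left of control, with each point a pool and each bar the mean of 4 and a scale of its own for each panel. The 6 genes of the upper row are higher in every high dose pool than in any control pool, and the 6 of the lower row are lower.

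Some genes of cell division also fell. Of 67 measured genes for DNA replication, mitosis and histones, 8 fell and 0 rose, against 1.15% of all features that fell. The change was below 0 in 66, against 45.1% of all features, and the median was -0.83. None of the 8 calls remained without control pool 1, without high dose pool 1 or without high dose pool 2, and without control pool 1 the change was below 0 in 63 genes with a median of -0.62. Control pool 1 had the highest mean of the 26 mitosis genes. That mean was 8.25, 8.48, 8.72 and 8.69 in the high dose pools and 10.07, 9.31, 9.46 and 9.29 in the control pools.

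The mitosis list held 6 of these calls and a median of -1.06. Birc5 (survivin), part of the chromosomal passenger complex, had 9.93, 10.55, 11.14 and 10.98 in the high dose pools and 12.87, 11.89, 12.13 and 11.76 in the control pools. The groups did not overlap, and the change was -1.51 ± 0.34 (adjusted p = 0.027). Top2a, the topoisomerase that untangles chromosomes, had 8.57, 8.79, 9.15 and 9.22 in the high dose pools and 10.78, 10.32, 10.28 and 10.04 in the control pools, with a change of -1.42 ± 0.33 (adjusted p = 0.0314). Prc1, which bundles microtubules of the central spindle, had 10.14, 10.51, 10.92 and 10.85 in the high dose pools and 12.53, 11.79, 11.97 and 11.74 in the control pools. Its change was -1.40 ± 0.33 (adjusted p = 0.0324). Nusap1, a spindle-associated protein, had 9.44, 9.65, 9.80 and 9.88 in the high dose pools and 11.98, 11.12, 11.04 and 10.81 in the control pools. Its probe was not well above background on any high dose array by the detection p, despite raw signals of 839.6 to 1094 there. The ratio of its normalized signals was 2.92-fold lower after 1 Gy (adjusted p = 0.0122). That ratio is an estimate and not a bound, because the probe's own signals lay above the lowest detected signal of the high dose arrays. It rests on high dose signals with a detection p above 0.05. The kinesins Kif23 and Kif22 fell with -1.03 and -1.32 (adjusted p = 0.0411 and 0.0498). Ccna2, Aurka and Plk1 did not pass, with -1.51, -1.07 and -0.90 (adjusted p = 0.115, 0.0775 and 0.243).

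The promoters of Prc1 and Top2a are shown because both genes fell and both hold the letters TTTGAA, in capitals on either strand, a form of the cell cycle homology region through which the DREAM complex acts. Prc1 lies on the plus strand (chr7:80294201-80294451) and Top2a on the minus strand (chr11:99024190-99024439). Each is again the 250 bases before a start (RefSeq, GRCm38.p6), with the first base of Prc1 itself added because the match ends there. The search held 2 starts for Prc1 and 1 for Top2a, and the start shown was chosen as for the p53 decamer.
Prc1: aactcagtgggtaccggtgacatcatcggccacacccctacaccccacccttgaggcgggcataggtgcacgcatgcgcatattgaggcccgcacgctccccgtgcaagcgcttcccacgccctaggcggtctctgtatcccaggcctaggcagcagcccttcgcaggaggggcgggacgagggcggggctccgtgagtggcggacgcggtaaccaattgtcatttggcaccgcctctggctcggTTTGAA
Top2a: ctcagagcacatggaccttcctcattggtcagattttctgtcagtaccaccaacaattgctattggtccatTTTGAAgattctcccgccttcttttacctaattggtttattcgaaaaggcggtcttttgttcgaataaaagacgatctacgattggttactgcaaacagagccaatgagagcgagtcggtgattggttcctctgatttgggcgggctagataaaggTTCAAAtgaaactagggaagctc
On both strands of the 300 bases, TTTGAA occurred in 15 of 20 mitosis list genes (75%), in 15.1% of measured genes and in 20.2% of all genes. It occurred in 25 of 128 genes that fell (19.5%) and in 8 of 56 that rose (14.3%). The CCAAT box occurred in 15 of the same 20 mitosis genes, in 42.3% of measured genes and in 41.1% of all genes.

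In DNA replication 1 of 30 measured genes fell, against 1.15% of all features. All 30 had a change below 0, against 45.1% of all features, and in 22 the groups did not overlap, against 12.6% of all features. The called gene was Tyms (thymidylate synthase), with 8.12, 8.54, 8.91 and 8.47 in the high dose pools and 10.23, 9.38, 9.52 and 9.11 in the control pools and a change of -1.05 ± 0.27 (adjusted p = 0.0489). H2ax, the histone variant that is phosphorylated at double-strand breaks and is made mostly in dividing cells, was the called gene of both the histone and the break repair list. It had 9.91, 10.28, 10.72 and 10.73 in the high dose pools and 11.88, 11.43, 11.89 and 11.36 in the control pools, a change of -1.23 ± 0.30 (adjusted p = 0.0351). Of 17 measured break repair genes, no other member was called, and the median was -0.56.

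Of 20 measured genes induced by type I interferon, 3 fell and 0 rose, against 1.15% of all features that fell, with a median of -0.22. Without control pool 1 or without high dose pool 1 there was 1 fall, and without high dose pool 2 there were 2. Rsad2 (viperin), an antiviral enzyme, had 11.66, 11.75, 12.59 and 12.21 in the high dose pools and 14.78, 14.32, 14.18 and 14.04 in the control pools. Every high dose pool was more than 1 log2 unit below every control pool. The change was -2.28 ± 0.31 (adjusted p = 0.00146), and it kept the call when any 1 pool was left out and in the 13 other alternatives. Its genomic neighbour Cmpk2, a mitochondrial nucleotide kinase, had 9.32, 9.74, 10.04 and 9.72 in the high dose pools and 10.92, 10.36, 10.51 and 10.57 in the control pools, a change of -0.88 ± 0.17 (adjusted p = 0.012). Isg20, an exonuclease that degrades viral RNA, had 9.65, 9.72, 10.35 and 10.02 in the high dose pools and 11.73, 10.70, 11.41 and 11.08 in the control pools, with -1.30 ± 0.25 (adjusted p = 0.012). The call of Cmpk2 was lost without control pool 1 or high dose pool 1, and that of Isg20 also without high dose pool 2. No other member passed: Irf7, the main amplifier of the response, had -0.48 (adjusted p = 0.382), Mx1 had 0.02 (adjusted p = 0.985), Ifit3 had 0.41 (adjusted p = 0.658) and Ifit2 had 0.06 (adjusted p = 0.938). Of 18 measured interferon gamma GTPase and MHC class I genes, 0 were called by limma and at an unadjusted p under 0.05 there was 1 lower and 0 higher.

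Further falls lay outside the lists or alone on one. Ypel4, a small zinc-binding protein, had the largest fall of all called genes with a symbol, with 6.01, 6.42, 7.82 and 7.76 in the high dose pools and 10.54, 9.41, 9.93 and 9.56 in the control pools. High dose pools 1 and 2 were lowest, and the groups were well apart. The change was -2.85 ± 0.49 (adjusted p = 0.00599), and it was -1.33 and not called with the background that limma infers. Ackr1, the Duffy chemokine receptor of red cells and venules, had 7.85, 8.30, 8.96 and 8.65 in the high dose pools and 11.40, 10.52, 10.75 and 10.11 in the control pools. Its change was -2.26 ± 0.39 (adjusted p = 0.00599). Rec114, known from meiotic break formation, had 7.48, 7.70, 8.07 and 8.16 in the high dose pools and 10.86, 9.58, 9.93 and 9.50 in the control pools, and a change of -2.12 ± 0.38 (adjusted p = 0.00698). Ypel4, Ackr1, Erich2 and Rec114 kept their call whichever pool was left out. Erich2 had -2.15 ± 0.33 (adjusted p = 0.00292), the ribosome-associated endonuclease Slfn14 had -2.13 ± 0.43 (adjusted p = 0.0143), the amino acid transporter Slc43a1 had -2.12 ± 0.50 (adjusted p = 0.0325), Apol8 had -2.31 ± 0.50 (adjusted p = 0.0227) and 3110040M04Rik had -2.02 ± 0.44 (adjusted p = 0.0227). The calls of Slfn14, Slc43a1, Apol8 and 3110040M04Rik were each lost without control pool 1, high dose pool 1 or high dose pool 2. With the background that limma infers, Slc43a1 and Rec114 (-1.33) were called, and Erich2 (-0.76), Slfn14 (-0.46), Apol8 (-0.35) and 3110040M04Rik (-0.40) were not. Bcl2l1 (BCL-XL), the survival factor on which maturing red cells depend, was the called gene among 13 measured BCL2 family members. It had 6.99, 7.05, 7.73 and 7.5 in the high dose pools and 9.38, 8.88, 8.83 and 8.42 in the control pools, with a change of -1.56 ± 0.31 (adjusted p = 0.0123), and it was not called without control pool 1, high dose pool 1 or high dose pool 2, nor with the background that limma infers (-0.50).

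Rises outside the p53 lists came from several cell functions. Ltc4s, leukotriene C4 synthase, had 9.59, 9.49, 9.14 and 9.37 in the high dose pools and 8.25, 8.27, 8.26 and 8.07 in the control pools. It was higher in every high dose pool, with a change of 1.19 ± 0.18 (adjusted p = 0.00234). Matn1 (matrilin-1), a matrix protein known from cartilage, had 7.12, 7.11, 7.01 and 6.90 in the high dose pools and 5.72, 5.82, 5.81 and 5.82 in the control pools. Its change of 1.24 ± 0.21 (adjusted p = 0.00599) was 0.11 with the background that limma infers. Coro1b, a coronin that acts on actin branches, had 8.29, 8.54, 8.09 and 8.55 in the high dose pools and 7.73, 7.03, 7.47 and 7.32 in the control pools, with 0.98 ± 0.16 (adjusted p = 0.00511). These 3 kept their call whichever pool was left out, and with the background that limma infers Ltc4s had 0.64 and Coro1b 0.25, both called. Psmb1, a subunit of the proteasome core, had 10.75, 11.28, 10.51 and 10.79 in the high dose pools and 9.65, 9.73, 9.70 and 9.56 in the control pools. It rose by 1.17 ± 0.25 (adjusted p = 0.0197) and was the called member among 32 measured proteasome genes, whose median change was -0.08. Sectm1a had 1.11 ± 0.22 (adjusted p = 0.0127), Cpxm1, a carboxypeptidase-like secreted protein, had 1.06 ± 0.24 (adjusted p = 0.0304), Pard6g, a polarity protein, had 0.95 ± 0.23 (adjusted p = 0.035) and Ankrd2 had 0.88 ± 0.21 (adjusted p = 0.0348). The calls of Psmb1, Sectm1a, Cpxm1, Pard6g and Ankrd2 were all lost without control pool 1 or without high dose pool 1, and with the background that limma infers Sectm1a, Pard6g and Ankrd2 had 0.07, 0.18 and 0.16 and were not called, and Cpxm1 with 1.15 was not called. Gpd1 (glycerol-3-phosphate dehydrogenase) and Mgst1 (microsomal glutathione transferase) had 0.87 ± 0.21 and 0.84 ± 0.20 (adjusted p = 0.0355 and 0.0348), and these calls were lost whichever pool was left out. The probe of Myo18b passed the test (adjusted p = 0.00234) but was detected on 0 arrays of both groups, so no fold is given. In all, 12 called features were detected on no array of 1 group, 3 of them on none of the 8.

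Vessel and matrix genes contributed a few rises. Of 18 measured endothelial genes, 2 rose, against 0.501% of all features. The change was above 0 in 17, against 54.9% of all features, and the median was 0.42. Cldn5 (claudin-5, of endothelial tight junctions) had 12.08, 12.35, 12.09 and 12.02 in the high dose pools and 11.16, 11.63, 11.30 and 11.32 in the control pools, and a change of 0.78 ± 0.16 (adjusted p = 0.0189). Tek (the angiopoietin receptor TIE2) had 8.75, 8.68, 8.40 and 8.73 in the high dose pools and 7.85, 7.92, 8.20 and 8.06 in the control pools, with 0.63 ± 0.14 (adjusted p = 0.0221). Both calls were lost without control pool 1, high dose pool 1 or high dose pool 2, that of Tek also without control pool 2 or high dose pool 4, and that of Cldn5 also without control pool 3. Mmp2, a matrix metalloproteinase, was the called member of 20 stromal genes, with 11.22, 11.20, 11.46 and 11.31 in the high dose pools and 10.28, 10.51, 10.75 and 10.58 in the control pools and a change of 0.77 ± 0.15 (adjusted p = 0.0122). Ctsd (cathepsin D) was the called member of 28 lysosome genes, with 12.42, 12.24, 12.35 and 12.34 in the high dose pools and 11.61, 11.24, 11.50 and 11.45 in the control pools and 0.89 ± 0.18 (adjusted p = 0.0169). Scd2, a stearoyl-CoA desaturase, rose by 0.70 ± 0.14 (adjusted p = 0.0153) among 14 lipid synthesis genes with a median of -0.04. The cytokine Il1a rose by 0.74 ± 0.16 (adjusted p = 0.0249) among 15 inflammatory genes with a median of 0.20. The call of Mmp2 was lost without control pool 1, those of Ctsd and Scd2 without control pool 1, high dose pool 1 or high dose pool 2, and that of Il1a without control pool 1, 2 or 4 or high dose pool 2, 3 or 4. With the background that limma infers, Tek had 0.22 and Il1a 0.13, both still called.

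No lymphocyte or dendritic cell marker passed the test. Of 77 measured genes on 5 lists for B cells, germinal centre and plasma cells, T cells, NK cells and dendritic cells, 0 were called by limma. The change was above 0 in 65, against 54.9% of all features, and 6 were higher at an unadjusted p under 0.05, against 7.33%. The median was 0.18, and 0.07 without control pool 1. The change was below 0 in 12 of the 77 genes with all pools and in 30 without control pool 1. The mean of 19 B cell markers was 11.40, 11.22, 11.33 and 11.41 in the high dose pools and 10.74, 11.27, 11.35 and 11.49 in the control pools. Control pool 1 was the lowest of the 8 and the other 7 overlapped. The mean of 18 T cell markers was 9.55, 9.64, 9.52 and 9.52 in the high dose pools and 9.07, 9.50, 9.58 and 9.42 in the control pools, again overlapping apart from control pool 1. The Cd37 tetraspanin had the highest B cell change, 0.45 ± 0.28 (adjusted p = 0.539), and Xbp1, a plasma cell regulator, had 0.43 ± 0.16 (adjusted p = 0.188) without overlap.

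Myeloid and platelet lists also gave 0 calls by limma. The mean of 15 neutrophil and granulocyte markers was 10.02, 9.73, 10.55 and 10.45 in the high dose pools and 11.25, 9.61, 9.35 and 8.93 in the control pools. Control pool 1 exceeded all high dose pools, and the other control pools lay below them, with none of the 15 genes at an unadjusted p under 0.05. The mean of 12 megakaryocyte and platelet markers was 10.07, 9.82, 10.38 and 10.27 in the high dose pools and 10.38, 9.70, 9.59 and 9.17 in the control pools, with 3 genes higher at an unadjusted p under 0.05. Of 21 measured macrophage and monocyte markers, 9 were higher at an unadjusted p under 0.05, against 7.33% of all features, and the median was 0.35. Mertk, a receptor for dying cells, had 10.83, 10.73, 10.61 and 10.61 in the high dose pools and 10.21, 10.19, 10.16 and 10.27 in the control pools, and Hmox1, which breaks down heme in red pulp macrophages, had 14.94, 14.55, 14.59 and 14.65 in the high dose pools and 14.16, 13.67, 14.08 and 14.12 in the control pools. Neither pair of groups overlapped, and the changes of 0.49 ± 0.14 and 0.68 ± 0.20 missed the threshold (adjusted p = 0.0898 and 0.0855). These shifts stood beside the erythroid fall, and their part in it was not tested.

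**Figure D4:**
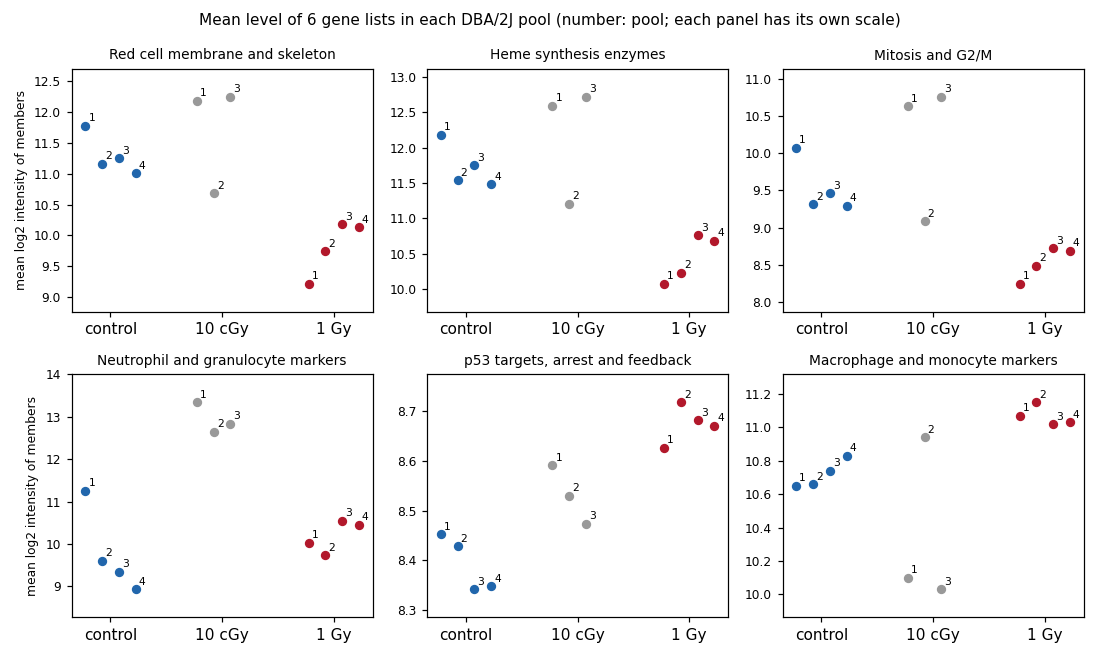
Mean level of the measured members of 6 gene lists (log2 normalized signal, vertical axis, a scale of its own for each panel) in each DBA/2J pool, by dose from control through 10 cGy to 1 Gy, with the pool's number beside each point. Control pool 1 departs from the other control pools in the erythroid, mitosis and granulocyte lists. High dose pools 1 and 2 are lower than 3 and 4 in the erythroid lists. Low dose pools 1 and 3 lie apart from low dose pool 2 in the erythroid, mitosis and macrophage lists.

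The remaining lists, on ribosomal proteins (20 genes, median 0.04), oxidative phosphorylation (23, -0.09), MHC class II (12, 0.19), complement and scavenger genes (12, 0.34), iron handling (16, 0.17), NRF2 targets (16, 0.01), the unfolded protein response (14, 0.10) and immediate-early and heat shock genes (12, 0.12), held 0 called genes in limma. Of these 123 genes, counted once each, 13 were higher and 6 lower at an unadjusted p under 0.05, against 7.33% and 6.28% of all features. The lowest adjusted p in them was that of Gclm, the regulatory subunit of glutathione synthesis, with 10.13, 10.46, 11.12 and 10.96 in the high dose pools and 12.36, 11.24, 11.78 and 11.44 in the control pools and a change of -1.04 ± 0.30 (adjusted p = 0.0792).

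The changes were then set beside those of C57BL/6J. In that strain the mean of the 10 pancreas and fat genes was 12.04, 7.06, 5.58 and 5.47 in the high dose pools. In its control pools it was 12.32, 6.07, 5.59 and 5.86. Pool 1 of each group thus stood far above the others. Both of these pools entered the strain comparison, the shared normalization and the estimate of the spread. The part of these levels in the results was not tested. Of the 86 features that rose in DBA/2J, 84 were above 0 in C57BL/6J (median 0.52), and of the 198 that fell, 195 were below 0 (median -1.77). The strain difference of the 1 Gy effect passed the test in 97 features (0.565%), 90 with a higher value in DBA/2J and 7 with a lower one. Higher values were 92.8% of these calls, 62.5% of 40 calls with the background that limma infers and 81.5% of 27 calls in the authors' values. Without C57BL/6J high dose pool 1 there were 61 calls, and without C57BL/6J control pool 1 there were 79. Among features called in DBA/2J the strain difference passed for 1 that rose and 6 that fell. For Ccng1 the change was 1.06 ± 0.11 in DBA/2J and 1.09 in C57BL/6J, and for Cdkn1a 1.35 ± 0.20 and 2.17. The strain differences of -0.03 ± 0.16 and -0.82 ± 0.29 did not pass (adjusted p = 0.9996 and 0.52).

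Granulocyte genes held the largest strain differences. Of the 15 granulocyte markers, 11 passed with a higher value in DBA/2J, as did 7 of 12 platelet markers and 14 of 56 erythroid genes. Among all 17176 features, 90 did so. In DBA/2J, Prtn3 (proteinase 3) had 9.02, 8.42, 9.46 and 9.35 in the high dose pools and 10.44, 8.68, 7.64 and 7.25 in the control pools. Its change there was 0.56 ± 0.55. In C57BL/6J it had 6.54, 7.14, 6.99 and 5.80 in the high dose pools and 12.38, 11.32, 10.27 and 12.01 in the control pools, a change of -4.87. The strain difference was 5.43 ± 0.78 (adjusted p = 0.0012). The unirradiated levels were also mostly lower in DBA/2J. Over the 15 granulocyte markers, the control means were 11.25, 9.61, 9.35 and 8.93 in DBA/2J and 12.75, 11.65, 10.85 and 12.51 in C57BL/6J. The part of these levels in the strain differences was not tested. Alas2 had changes of -1.74 in DBA/2J and -4.31 in C57BL/6J, and the difference of 2.56 ± 0.48 passed (adjusted p = 0.0112). The median change of the 56 erythroid genes was -1.26 in DBA/2J and -2.78 in C57BL/6J. Irgm2, an interferon-inducible GTPase, had the opposite order, with -0.77 ± 0.20 in DBA/2J and 0.46 in C57BL/6J and a difference of -1.23 ± 0.28 (adjusted p = 0.0482).

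**Figure D5:**
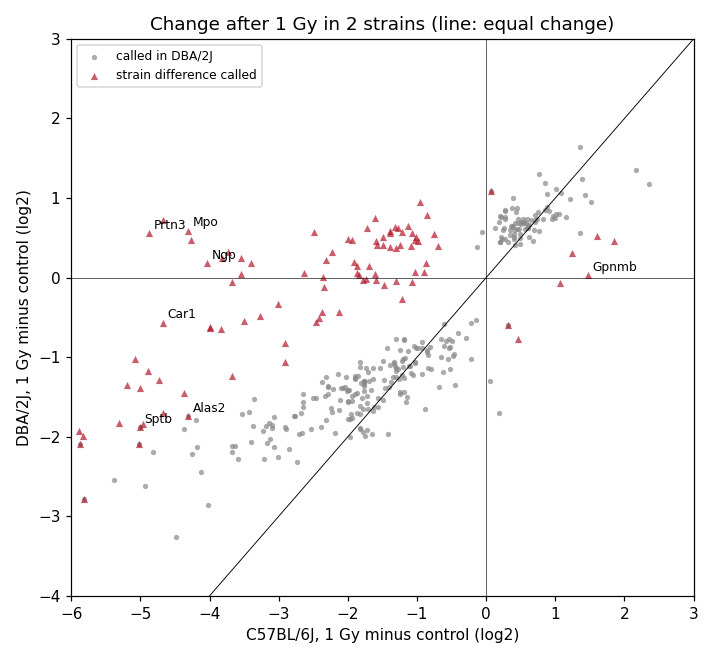
Change after 1 Gy in DBA/2J (log2, 1 Gy minus control, vertical axis) against the same in C57BL/6J (horizontal axis). Grey points are the 284 features called in DBA/2J and triangles the 97 with a called strain difference, most of which lie above the line of equal change.

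The 1 Gy pools were also set against the 10 cGy pools of the same strain, where dose, dose rate and source change together. In this comparison 6179 features differed (36%), 3452 higher and 2727 lower after 1 Gy. Higher values were 55.9% of the calls, and 80.5% with median scaling, which moved the median of all features to 0.20. Low dose pools 1 and 3 stood apart from the high dose pools, with correlations of 0.924 to 0.945, and without them 198 features were called, with the remaining low dose pool assumed to vary like the other groups. Dglucy had 7.57, 7.77, 7.42 and 7.35 in the high dose pools and 5.29, 5.24 and 5.17 in the low dose pools, a change of 2.29 ± 0.19 (adjusted p = 7.76e-07). All high dose pools were above all low dose pools, and without low dose pools 1 and 3 the change was 2.29 (adjusted p = 0.00122). Ccng1 had 10.04, 10.06 and 9.96 in the low dose pools, and its change against low dose was 0.89 ± 0.12 (adjusted p = 5.96e-05). Cdkn1a had 9.97, 9.59 and 9.58 in the low dose pools, within the range of the high dose pools for low dose pools 2 and 3 and above it for low dose pool 1. Its change against low dose was -0.03 ± 0.22 (adjusted p = 0.943). Prtn3 had 9.02, 8.42, 9.46 and 9.35 in the high dose pools and 13.47, 12.20 and 12.80 in the low dose pools, a change of -3.76 ± 0.60 (adjusted p = 0.000178), and -3.14 without low dose pools 1 and 3 (adjusted p = 0.0878). This comparison shares the high dose pools with the one against control, so the values of both are not independent.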

How the data were processed

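Spleen RNA was measured on 23 one-colour Illumina arrays, each a pool of 2 mice per the labels. The authors deposited 1 signal per probe as an intensity on a linear scale, not normalized, and beside it a detection p-value, per the file headers. The table the authors processed holds log2 values, made with lumi per the submitters' processing notes (version not given). It served as an alternative, since its exact transform is unknown.

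With R 4.3.3 and limma 3.58.1, each array's background mean was set to its median signal at a detection p of 0.5 (within 0.005) and the SD from the signal at a detection p of 0.16. Normexp correction, an offset of 16, quantile normalization and log2 followed. The background mean that limma itself infers (158 to 227) exceeded the signals that went with a detection p of 0.05 (104 to 140 over the 23 arrays), and 274 to 456 probes per array with a signal over 500 had a detection p over 0.05. It was used as an alternative. Probes detected at p under 0.05 on at least 3 of 23 arrays were kept (18423 of 34492). The brightest probe stood for each symbol, giving 17176 features, 11348 with a symbol. In the platform annotation, 20256 probes had 1 symbol, 9 several and 14227 none; 20213 matched the gene table by gene number.

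A fit of 6 group means to all arrays (lmFit, eBayes, 17 residual degrees of freedom, two-sided) gave the comparisons, with Benjamini-Hochberg adjustment over all features and a threshold of 0.05. It was tested on simulated data. The number of arrays limits the precision, and the offset compresses changes of dim probes. The gene lists (37, with 595 of 765 members measured) and the genes named were chosen with earlier results of these data known. Named genes were the 15 largest rises and 15 largest falls with a symbol among those called, up to 4 members per list by adjusted p, 6 fixed p53 targets, and the leading genes of the 2 further comparisons, 6 in each direction at most. Other list members are named for their role. Alternatives covered background, offset, scaling, filters, probe choice, arrays fitted, array weights, variance trend and leaving out each pool.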

Additional observations from a re-analysis of the deposited data

Results flagged for a closer look

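Among 264 sets of 4 pools examined, 11 (4.17%) held a pool far from the others, and chance alone does so in about 1 in 20. In the control pools, Rhd had its highest value, 10.21, in pool 1, where Bpgm also had its highest, 9.37. Pool 1 also had the lowest control value of Serping1, the complement C1 inhibitor, at 11.49, and of Matn1 at 5.72. The lowest control value of Hmox1, 13.67, was in pool 2, and that of Ltc4s, 8.07, in pool 4. The mean of the p53 death and metabolism list was lowest in control pool 1 (8.68), and the mean of the break repair list was highest there (8.48). In the high dose pools, the respiratory chain gene Ndufb8 was lowest in pool 1 (12.14), and the means of the NRF2 list (9.88) and of the unfolded protein response list (9.19) were lowest in pool 2.

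The 1 Gy effect differed between strains by the interaction test for 17 of the genes named. On the log2 scale, the DBA/2J effect minus the C57BL/6J effect was above 0 for the granulocyte genes Prtn3 (5.43), Ctsg (5.39), Mpo (4.90), Elane (4.75), Ngp (4.21) and Ms4a3 (4.06), for the erythroid genes Car1 (4.10), Sptb (3.12) and Alas2 (2.56), for the platelet and vessel gene Vwf (1.64) and for Myo18b (1.01), whose probe was detected on 0 of the 8 DBA/2J arrays. It was below 0 for Gpnmb (-1.44), 2510002D24Rik (-1.39), Irgm2 (-1.23), Klri2 (-1.14), D630023F18Rik (-1.08) and 9330151L19Rik (-0.93). Gpnmb, Klri2 and 9330151L19Rik were detected on 0 arrays of the DBA/2J high dose and control groups, D630023F18Rik on 1 high dose array and 0 control arrays, and Sptb on 0 control arrays. For these and for Myo18b the printed differences are fitted values that rest, in at least 1 DBA/2J group, on signals with a detection p above 0.05, and they give no fold.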

How the results depend on the processing

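All 284 features called after 1 Gy kept their direction under each alternative in which they were tested (270 of them when detection on all arrays of a group was required). The number of calls moved to 176 in the authors' processed values, 150 with no filter, 15 with the 11 DBA/2J arrays, 688 with the 8 arrays and 1083 with array weights, and lay between 37 and 246 when 1 pool was left out. It lay between 207 and 301 with the other backgrounds, offset, scalings, filters, probes and variance trend. The strain difference had 97 calls, and 40 with the background that limma infers, 60 with no background correction, 27 in the authors' values, 46 with no filter, 286 with array weights and 45 to 135 with 1 pool left out. Against low dose there were 6179 calls, 3309 to 7788 with 1 pool left out, and 198 without low dose pools 1 and 3, an alternative chosen after seeing the data, as was a filter on the signal (289 calls after 1 Gy).

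The largest changes of size came from the background of dim probes. With the background that limma infers, Dglucy had 0.18, Matn1 0.11, Cdkn1a 0.84, Ccng1 1.30 and Apol8 -0.35. No named called gene turned direction, and 6 of 57 kept the call in all 8 fits with 1 pool left out and all 13 others: Rsad2, Rec114, Ccng1, Matn1, Cdkn1a and Dglucy. Uncalled genes turned direction as follows. Ms4a3 had -0.014 with the background that limma infers, and -0.041 to 0.95 with 1 pool left out. Gpnmb had -0.0067 with median scaling, -0.091 with cyclic loess and -0.0069 to 0.053 with 1 pool left out, and Rpl10 had -0.023 with cyclic loess. Cd177 had 0.28 with array weights and -0.44 to 0.22 with 1 pool left out, and Wfdc21 had 0.26 and -0.40 to 0.42. With 1 pool left out, Ngp had -0.22 to 0.89 (below 0 without control pool 2, control pool 4 or high dose pool 3) and Btg2 -0.21 to 0.11 (above 0 without control pool 4 or high dose pool 2). Against low dose, Ubd had -0.21 without low dose pools 1 and 3. The cause was not tested for any of these.

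No paired analysis was possible because the replicate numbers follow the order of deposit and pair no pools across groups. Probes near background give no exact fold, and changes of dim probes are compressed towards 0.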
